A study of Mus musculus with 18 samples.

Results

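LPS opened 4500 distal chromatin regions in Il10-/- macrophages, and 439 of them (9.76%) kept close to the LPS level of accessibility after pretreatment with the BET inhibitor (+)-JQ1 and after pretreatment with IL-10. These 439 regions, called resistant peaks here, were chosen from the read counts of 157614 distal ATAC-seq peaks, out of 194284 peaks in the series. Each count was scaled to the sum over all peaks of its library as CPM, the counts expected if that sum were 1000000, and averaged over the 3 libraries of each condition. A resistant peak had at least 2 CPM in LPS, at least 2 times its Unstimulated level in LPS, and a level between 0.85 and 1.3 times that of LPS in both LPS + JQ1 and LPS + IL-10. The levels in Unstimulated, LPS, LPS + JQ1 and LPS + IL-10 therefore chose the peaks, and they are given below as a description without a test. The JQ1 and IL-10 libraries without LPS were not used in the choice.

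The cells were bone marrow-derived macrophages (BMDMs) of C57BL/6J Il10-/- mice, grown with L929-conditioned medium, and every condition, the controls included, lacked Il10. The conditions were Unstimulated, (+)-JQ1 alone (500 nM), IL-10 alone (10 ng/mL), LPS (50 ng/mL), LPS + JQ1 and LPS + IL-10, with 3 libraries each and 18 in all. Treatment lasted 12 hours before LPS or PBS was added for 4 hours, for 16 hours in total. The description of the series calls samples of different conditions matched, but no label ties a replicate number to an animal. Depth ran from 12020526 to 25908198 counts over all peaks. Added IL-10 was the only IL-10 these cells could meet, which limits the model to the response to exogenous cytokine.

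ATAC-seq measures where a transposase can reach DNA, and distal peaks are often enhancers. LPS acts through TLR4 and opens many enhancers bound by NF-kappaB, AP-1 and, later, interferon-driven IRF and STAT factors. BET proteins bind acetylated histones and help transcription at such enhancers, and JQ1 displaces them. IL-10 acts through STAT3 and restrains inflammatory gene expression in macrophages.

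The macrophage identity of the samples was checked at promoter peaks of marker genes. A promoter peak was found for 9 of 10 macrophage markers, and Csf1r, the CSF-1 receptor, had a mean of 35.1 CPM. Promoter peaks were also found for 3 of 6 T cell markers (Lck at 17.7 CPM and Cd28 at 9.53, but none for Cd3d, Cd3e or Cd3g) and for 3 of 6 B cell markers (Pax5 at 7.71 CPM, but none for Ms4a1). They were found for 4 of 6 neutrophil markers (Elane at 27.5 CPM and Camp at 8.41, but none for Ly6g or Ngp), for 5 of 5 dendritic cell markers (Zbtb46 at 31.1 CPM) and for 2 of 6 fibroblast markers (Pdgfra at 23.0 CPM and Col1a1 at 14.4). An open promoter does not show that the gene was expressed, so these markers set no limit on other cell types. LPS + JQ1 replicate 1 stood apart at the resistant peaks, with a median of 13.6 CPM against 10.3 and 10.6 in the other libraries of its group. Without that library the rule found 336 peaks, of which 315 were among the 439.

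The central 300 bases of 5 resistant peaks are shown as examples of motif matches. Of these peaks, 4 had a very large LPS to Unstimulated ratio and 1 had a very high level in LPS. All 5 sequences hold a match, so they do not show how common matches are. The central 300 bases of the Sykb, Matn4, Pik3r5, Pik3ap1, Cd83 and Mmadhc peaks with the largest ratios or levels held no match to the 3 motifs and are not shown. The printed sequences are the forward strand of mm9, and capitals mark matches to 3 motifs on either strand. These were the AP-1 element TGANTCA, the IRF response element GAAANNGAA, and the kappaB motif, which is given by name alone. The regions printed were chr12:56585413-56585712 and chr12:56587854-56588153 downstream of Nfkbia, chr2:126135896-126136195 downstream of Dtwd1, chr17:29531283-29531582 downstream of Fgd2 and chr2:164260487-164260786 in an intron of Sdc4.
Nfkbia, 8072 bases downstream of the start site: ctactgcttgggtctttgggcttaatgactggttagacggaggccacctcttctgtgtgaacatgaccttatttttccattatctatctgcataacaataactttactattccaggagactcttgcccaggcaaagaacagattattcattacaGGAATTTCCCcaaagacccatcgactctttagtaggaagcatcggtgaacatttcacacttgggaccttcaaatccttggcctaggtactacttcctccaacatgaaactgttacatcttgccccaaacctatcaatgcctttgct
Nfkbia, 5631 bases downstream: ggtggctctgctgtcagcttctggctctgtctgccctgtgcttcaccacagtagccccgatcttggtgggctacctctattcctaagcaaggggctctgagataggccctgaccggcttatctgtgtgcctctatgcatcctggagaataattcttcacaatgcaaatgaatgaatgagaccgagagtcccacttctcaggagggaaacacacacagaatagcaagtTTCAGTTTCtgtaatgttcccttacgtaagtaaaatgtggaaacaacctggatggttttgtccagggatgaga
Dtwd1, 155768 bases downstream: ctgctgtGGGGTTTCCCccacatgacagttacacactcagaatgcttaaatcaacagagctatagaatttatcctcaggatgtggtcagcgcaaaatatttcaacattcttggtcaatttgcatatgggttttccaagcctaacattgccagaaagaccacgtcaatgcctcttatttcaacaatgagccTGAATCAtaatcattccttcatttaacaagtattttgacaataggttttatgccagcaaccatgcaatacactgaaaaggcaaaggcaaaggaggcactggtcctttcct
Fgd2, 17986 bases downstream: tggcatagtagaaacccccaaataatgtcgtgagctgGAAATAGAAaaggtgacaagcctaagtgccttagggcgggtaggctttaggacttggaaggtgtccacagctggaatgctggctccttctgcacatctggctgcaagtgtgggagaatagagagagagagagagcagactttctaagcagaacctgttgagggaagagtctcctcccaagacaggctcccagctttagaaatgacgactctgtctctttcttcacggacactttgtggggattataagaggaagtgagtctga
Sdc4, 8050 bases downstream: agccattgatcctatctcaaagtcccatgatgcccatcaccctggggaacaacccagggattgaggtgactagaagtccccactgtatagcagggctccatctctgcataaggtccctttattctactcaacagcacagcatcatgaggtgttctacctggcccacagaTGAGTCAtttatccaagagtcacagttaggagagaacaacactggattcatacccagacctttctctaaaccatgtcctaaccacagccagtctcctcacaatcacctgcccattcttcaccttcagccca
The first sequence held a kappaB match at base 155, counted from 1 at its left end, and the Dtwd1 sequence held a kappaB match at base 8 and an AP-1 match at base 191. The second Nfkbia sequence and the Fgd2 sequence held an IRF match at bases 228 and 38, and the Sdc4 sequence held an AP-1 match at base 170. The start site distances here and below are those of the nearest protein-coding gene, measured from the peak's centre, and being nearest does not show that a gene is the target.

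Across the 439 peaks the median level was 4.60 CPM in Unstimulated, 11.4 in LPS, 11.6 in LPS + JQ1 and 11.7 in LPS + IL-10. The LPS to Unstimulated ratio had a median of 2.35 and ran from 2.00 to 7.40. Both the (LPS + JQ1) to LPS ratio and the (LPS + IL-10) to LPS ratio had a median of 0.987. For all 4500 LPS-opened peaks those medians were 0.656 and 0.691. Of the opened peaks, 3425 (76.1%) lay under 0.85 with JQ1 and 3199 (71.1%) with IL-10. A group of 1402 was under 0.67 with both treatments and is called lowered by both below. All of these values were fixed or shaped by the rule.

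**Figure D1:**
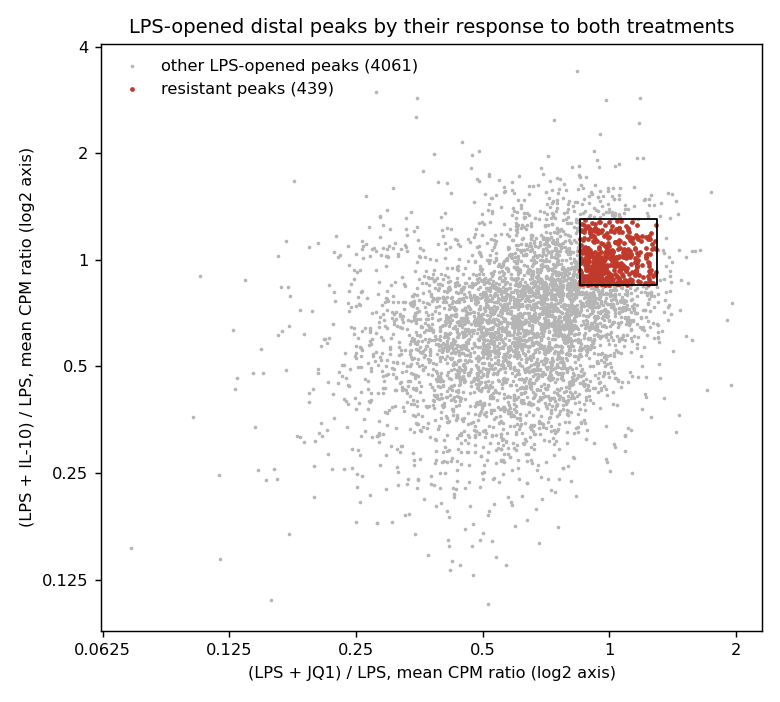
Mean CPM ratio to LPS of the 4500 LPS-opened distal peaks in LPS + JQ1 (x axis) and in LPS + IL-10 (y axis), both on log2 axes. The box from 0.85 to 1.3 on both axes holds the 439 resistant peaks (red), and most other opened peaks (grey) lie to the left of it, below it or both.

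The Unstimulated level of resistant peaks was above that of the opened peaks as a whole, a level that entered the rule. Their median of 4.60 CPM stood beside 2.34 CPM for all LPS-opened peaks, 1.63 CPM for the peaks lowered by both and 1.89 CPM for all distal peaks. Their median width was 1439 bases, against 1302 for opened peaks and 907 for all distal peaks. A width of 3 kb or more was found in 51 resistant peaks (11.6%), in 11.8% of opened peaks and in 5.54% of all distal peaks. The GC content was close in the 3 sets, with medians of 44.4%, 43.9% and 45.6%.

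The ratios varied among replicates. The same-numbered ratio of LPS + JQ1 to LPS had medians of 1.15, 0.895 and 0.937 over the resistant peaks in replicates 1, 2 and 3. For LPS + IL-10 these medians were 1.05, 0.932 and 1.02. A peak's ratio stayed between 0.85 and 1.3 in all 3 replicates for 126 of 439 peaks with JQ1 and for 153 with IL-10, and 23 peaks met the whole rule in every replicate set.

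**Figure D2:**
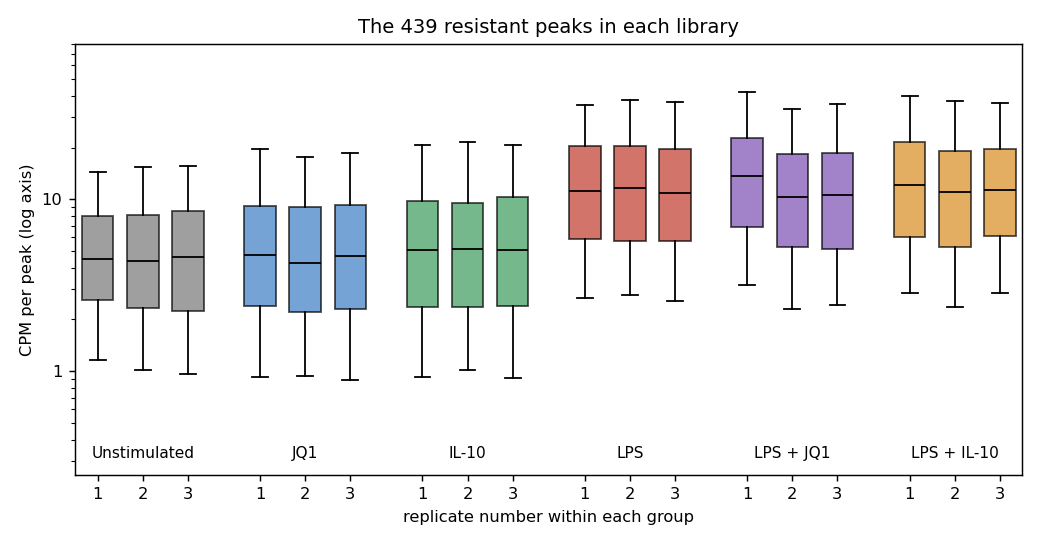
CPM of the 439 resistant peaks in each of the 18 libraries, on a log axis (line, median; box, quartiles; whiskers, 5th to 95th percentile). The medians sit between 4.27 and 5.16 CPM without LPS and between 10.3 and 13.6 CPM with LPS, the highest being LPS + JQ1 replicate 1.

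A replicate left out of the rule gave a measurement that a choice from the other replicates had not used. When the rule was applied to replicates 2 and 3, it found 357 peaks, and in replicate 1 their median (LPS + JQ1) to LPS ratio was 1.17, against 0.767 for the peaks LPS opened in the same replicates. With replicate 2 left out, 502 peaks had a median of 0.856 there, against 0.619. With replicate 3 left out, 489 peaks had a median of 0.921 there, against 0.651. For LPS + IL-10 the left-out medians were 1.06, 0.912 and 0.994, against 0.759, 0.656 and 0.748 for the opened peaks. The left-out LPS to Unstimulated medians were 2.14, 2.40 and 2.20. In each left-out replicate the chosen peaks had higher medians than the opened peaks in both ratios. Of the chosen peaks, 49.0% to 62.4% fell within 0.85 to 1.3 there. Of the 357, 502 and 489 peaks, 221, 310 and 303 were among the resistant peaks, so these sets are not the resistant peaks themselves. The opened peaks included those the rule leaves out for a low ratio. The medians therefore describe the sets chosen without 1 replicate and do not test the resistance of the resistant peaks.

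At the thresholds shown here, peaks on either side had close values. A peak 4926 bases from the Cpd start site was the nearest inside the LPS ratio limit at 2.00069, and one 1218 bases from Mapkbp1 was the nearest outside at 1.99973. At the lower JQ1 limit the neighbours were a peak 11840 bases from Fpr2, a formyl peptide receptor gene, at 0.85036 and one 18110 bases from Abr at 0.849711. At the lower IL-10 limit they were a peak 14472 bases from Susd1 at 0.850004 and one 64100 bases from Gp49a at 0.849637. At the upper IL-10 limit a peak 48499 bases from Diras2 was inside at 1.299, next to one 4091 bases from Vps13d at 1.30184. Within 5% of the lower JQ1 limit there were 71 peaks inside and 72 outside that met every other limit.

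The 2 resistant peaks with the largest LPS to Unstimulated ratio lay downstream of Nfkbia, which encodes the NF-kappaB inhibitor IkappaBalpha. The peak at chr12:56584705-56586420, intergenic and 8072 bases downstream of the start site, had 5.41, 6.58 and 7.79 CPM in the Unstimulated libraries and 46.2, 50.0 and 50.1 CPM in LPS. It had 70.1, 52.9 and 47.1 CPM in LPS + JQ1 and 56.8, 44.2 and 40.0 CPM in LPS + IL-10. The LPS libraries overlapped those of both treated groups, and replicate 1 was the highest in each treated group. Without LPS it had 6.22 to 6.98 CPM in JQ1 and 8.28 to 12.8 CPM in IL-10.

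The next peak toward Nfkbia, at chr12:56587438-56588568 and 5631 bases downstream, had 6.20 to 6.96 CPM in Unstimulated and 41.8, 44.5 and 42.2 CPM in LPS. Its levels were 53.5, 37.2 and 36.8 CPM in LPS + JQ1 and 42.6, 37.4 and 34.0 CPM in LPS + IL-10. A further 3 resistant peaks stood 11496, 4247 and 2617 bases downstream, the last of them in an intron, with mean levels in LPS of 46.7, 31.7 and 14.3 CPM. The LPS to Unstimulated ratios of the 5 peaks were 4.07, 7.40, 6.43, 2.74 and 2.04 from far to near. All 5 distal peaks that LPS opened in this stretch of chr12:56579574-56591660 were resistant, but the stretch ends at the outermost of them. Within 25 kb of an Nfkbia start site there were 6 opened peaks, 5 of them resistant. The promoter peak of Nfkbia itself had 34.5 CPM in Unstimulated and 40.9 CPM in LPS, a smaller difference than at any of the 5 distal peaks. The rule chose the distal peaks for their rise with LPS, so nothing is read from this.

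The other peaks with the largest ratios were spread over the genome. A peak 155768 bases downstream of Dtwd1 had a ratio of 5.76, with 3.04 to 3.83 CPM in Unstimulated, 18.6 to 20.4 CPM in LPS, 15.8 to 21.3 CPM in LPS + JQ1 and 18.3 to 19.2 CPM in LPS + IL-10. An intron of Sykb, the gene of the SYK tyrosine kinase, held a peak with a ratio of 5.24, at 29.1 ± 3.73 CPM in LPS, 29.7 ± 5.68 in LPS + JQ1 and 25.0 ± 1.91 in LPS + IL-10 (SD, n = 3). The peak 17986 bases downstream of Fgd2, a Cdc42 exchange factor gene, had a ratio of 5.21, and it had 2.47 to 3.16 CPM in Unstimulated against 4.83 to 5.64 in JQ1 and 5.30 to 5.86 in IL-10. The Sykb and Fgd2 peaks were higher in every JQ1 and IL-10 library than in every Unstimulated library. An intronic peak of Zeb1, a zinc finger repressor gene, had a ratio of 5.23 at a low level of 3.82 to 5.76 CPM in LPS.

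One of the 2 windows of 100 kb with the most resistant peaks ran from Matn4 to Sdc4, which encodes the heparan sulphate proteoglycan syndecan-4. Between chr2:164234850 and chr2:164266300 there were 8 resistant peaks, and the 100 kb that begin at the first of them held 11 LPS-opened peaks, 1 of them lowered by both, among 24 distal peaks. The strongest of all 439 peaks was here, at chr2:164239437-164245969, with 12.8 to 13.6 CPM in Unstimulated and 65.7, 59.5 and 58.2 CPM in LPS. It had 73.5, 58.5 and 56.3 CPM in LPS + JQ1 and 69.3, 55.8 and 50.8 CPM in LPS + IL-10, so the 3 groups overlapped. An intronic Sdc4 peak 8050 bases downstream of the start site had 51.6 ± 2.92 CPM in LPS, 48.0 ± 8.71 in LPS + JQ1 and 45.5 ± 3.86 in LPS + IL-10 (SD, n = 3). The cluster's lowest member, 5316 bases upstream of Matn4, reached 7.02 CPM in LPS.

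The other window, also with 8 resistant peaks, lay downstream of Il10, toward and into Mapkapk2, the gene of a kinase below p38. Of these, 6 were 18464 to 35182 bases downstream of the Il10 start site and 2 were in introns of Mapkapk2. The highest, 23374 bases downstream of Il10, had 11.3 CPM in Unstimulated, 29.0 in LPS, 31.7 in LPS + JQ1 and 29.8 in LPS + IL-10. The 100 kb from the first peak held 12 LPS-opened peaks, none of them lowered by both, among 32 distal peaks. These peaks stood beside a gene whose product the cells could not make.

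**Figure D3:**
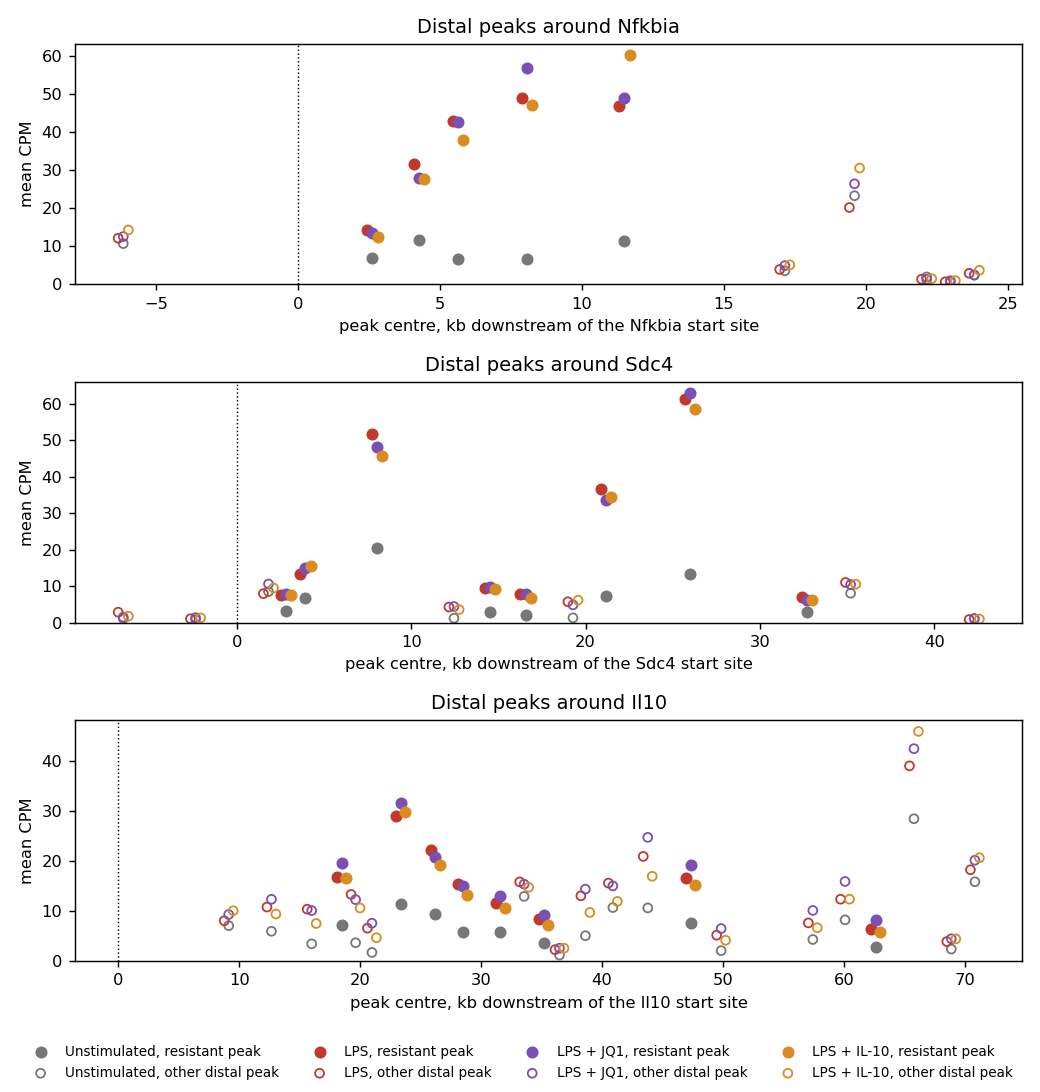
Mean CPM (y axis) of distal peaks against the distance of their centres from the start sites of Nfkbia, Sdc4 and Il10 (x axis, kb downstream, dotted line at the start site), with filled points for resistant peaks and open points for other distal peaks. Points of 1 peak are set slightly apart sideways, and at each resistant peak those of the 3 conditions with LPS lie above Unstimulated, and the highest resistant peaks have 48.8 CPM at Nfkbia and 61.2 CPM at Sdc4 in LPS.

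Of the 6 resistant peaks with the highest LPS level, 2 lay in introns of genes of PI3K signalling. An intronic Pik3r5 peak, in the gene of a regulatory subunit of PI3K gamma, had 59.6 ± 3.92 CPM in LPS, 63.7 ± 10.1 in LPS + JQ1 and 77.0 ± 3.10 in LPS + IL-10 (SD, n = 3). All 3 LPS + IL-10 libraries, 73.4 to 79.1 CPM, were above all 3 LPS libraries, 55.6 to 63.4 CPM, although the ratio of 1.29 kept the peak within the rule. An intron of Pik3ap1, which encodes the adaptor BCAP, held a peak at 55.7 to 63.7 CPM in LPS, 46.9 to 54.3 in LPS + JQ1 and 59.8 to 66.9 in LPS + IL-10, so every LPS + JQ1 library was below every LPS library. A peak 7765 bases upstream of Cd83, a surface marker of activated antigen-presenting cells, had 59.1 ± 0.884 CPM in LPS, 57.9 ± 11.7 in LPS + JQ1 and 55.7 ± 4.38 in LPS + IL-10. An intergenic peak 392949 bases upstream of Mmadhc completed the 6 highest.

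JQ1 alone and IL-10 alone were compared without LPS, in libraries that the rule did not use. With edgeR's quasi-likelihood test (FDR under 0.05 and an absolute log2 fold change above 0.5), 42 of 439 resistant peaks differed, 15 of them higher in JQ1 and 27 lower in JQ1 than in IL-10. Among all distal peaks tested, 0.936% were called higher and 1.51% lower, or 2.44% in all. Among the other LPS-opened peaks 1.28% were called higher and 5.49% lower, or 6.77% in all. The resistant peaks' shares were 3.42% and 6.15%, or 9.57% in all. The median log2 fold change was -0.01 over the resistant peaks and -0.02 over all distal peaks. Resistant peaks had more reads than the others (an IL-10 median of 5.09 CPM against 1.98 for all opened peaks and 1.44 for all distal peaks). Among peaks with at least 10 counts in every library, 11.1% of resistant peaks were called, beside 10.3% of the other opened peaks and 4.59% of all distal peaks, and the share lower in JQ1 was 7.97% beside 8.41% of the other opened peaks. With total-count scaling the split was 9 higher and 41 lower (2.05% and 9.34%), beside 0.936% and 7.61% of the other opened peaks and 0.646% and 2.37% of all distal peaks.

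The count was lowest without replicate 2. Without it 12 peaks were called, without replicate 3 there were 27 and without replicate 1 there were 36. Each of these fits had fewer libraries. Calls against Unstimulated also fell without replicate 2, from 123 to 36 in JQ1 and from 150 to 51 in IL-10. The shares of all distal peaks in these fits are not given here, so the drop is not read as particular to resistant peaks. All 3 JQ1 libraries were above all 3 IL-10 libraries in 12.1% of resistant peaks and below them in 22.3%, beside 6.33% and 14.1% of all distal peaks. The summed promoter level of the neutrophil markers with a peak (4 of 6) was 40.3 to 44.5 CPM in IL-10 and 27.1 to 34.2 CPM in JQ1, with Ly6g and Ngp without a promoter peak. That of the macrophage markers was 220 to 224 CPM in IL-10 and 253 to 255 CPM in JQ1. The part of these levels in the difference was not tested.

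Most peaks called lower in JQ1 had IL-10 levels above the Unstimulated level. In 23 of the 27, every IL-10 library was above every Unstimulated library, with a median IL-10 to Unstimulated ratio of 1.68 and a largest of 3.69. That non-overlap was found in 30.1% of all resistant peaks, 8.94% of the other opened peaks and 5.59% of all distal peaks. The JQ1 to Unstimulated ratio of the same 27 peaks had a median of 0.941, with every JQ1 library below every Unstimulated library in 8 and above in 4. All distal peaks had 27.4% below and 3.71% above, and all resistant peaks had 7.97% below and 20.7% above. The count below was thus near the share of all distal peaks but above that of resistant peaks. The Unstimulated libraries took part in the choice of the peaks, so these are levels and not a test.

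The smallest adjusted p belonged to an intergenic peak at chr4:125680037-125681875, 20838 bases upstream of Csf3r, the gene of the G-CSF receptor. It had 20.7, 21.2 and 21.1 CPM in IL-10 and 7.76, 7.22 and 7.42 CPM in JQ1, a log2 difference of -1.42 (SE 0.15, edgeR adjusted p = 5.07e-12). Unstimulated cells had 5.07, 5.19 and 6.82 CPM and LPS cells 25.0, 21.5 and 22.8 CPM. IL-10 without LPS came to 0.909 of the LPS level at this peak, and LPS + IL-10 reached 27.0 to 30.5 CPM. The Csf3r promoter peak, looked up after its values were seen, had 12.6 CPM in Unstimulated, 13.6 CPM in IL-10 and 11.1 CPM in LPS.

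The peak 5432 bases downstream of Socs3, the feedback inhibitor induced by STAT3, showed the highest IL-10 level of all resistant peaks. At chr11:117824483-117825654 it had 24.2 to 26.7 CPM in Unstimulated, 31.9 to 33.2 CPM in JQ1, 60.9, 69.4 and 64.6 CPM in IL-10 and 49.5 to 52.3 CPM in LPS. The log2 difference of JQ1 from IL-10 was -0.93 (SE 0.13, edgeR adjusted p = 3.76e-07). It was 1 of 7 resistant peaks with at least 0.85 times the LPS level in IL-10 alone (1.59%, against 0.591% of the other opened peaks), and none reached that with JQ1 alone. The others lay nearest to Csf3r, Rin3, Jarid2, Popdc2, Tnfsf14 and Polr1e. These names, and Socs3, were taken from the list of called or highest peaks after the values were seen.

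Further peaks that were lower in JQ1 than in IL-10 included one in an intron of Slc24a4, 37104 bases upstream of Rin3, a Rab5 exchange factor gene. It had 8.20 to 11.7 CPM in IL-10, 3.22 to 3.83 CPM in JQ1 and 3.49 to 4.49 CPM in Unstimulated (log2 difference -1.45, SE 0.18, edgeR adjusted p = 1.88e-09). An intronic peak of Vmp1, an autophagy gene, had 22.6 to 24.6 CPM in IL-10, 10.8 to 11.5 in JQ1 and 7.32 to 10.1 in Unstimulated, and it came to 26.5 to 29.8 CPM in LPS. An intronic Pik3r5 peak, 11656 bases upstream of Pik3r6, had levels on both sides of Unstimulated, with 11.9 to 13.6 CPM in IL-10, 8.59 to 9.74 in Unstimulated and 4.77 to 6.33 in JQ1. In LPS + JQ1 this peak was nevertheless at 15.9 to 22.0 CPM, next to 16.9 to 22.0 in LPS.

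The 15 peaks higher in JQ1 than in IL-10 had a median JQ1 to Unstimulated ratio of 1.32 and a median IL-10 to Unstimulated ratio of 0.847. In 9 of them every JQ1 library was above every Unstimulated library, and in 4 every IL-10 library was below. Of all distal peaks 3.71% had JQ1 above and 22.5% had IL-10 below in this way, beside 20.7% and 5.24% of all resistant peaks. The Unstimulated libraries took part in the choice of the peaks, so nothing is read from these counts. The smallest adjusted p was that of an intergenic peak 17971 bases upstream of Tmem26, with 11.6, 11.6 and 11.7 CPM in JQ1, 5.77 to 6.99 CPM in IL-10 and 6.89 to 8.47 CPM in Unstimulated (log2 difference 0.94, SE 0.16, edgeR adjusted p = 1.17e-05). A peak 104423 bases upstream of Pou1f1 had 7.41 to 10.4 CPM in JQ1 and 4.90 to 5.30 in IL-10. A peak 99797 bases downstream of Ets2, an ETS family factor gene, had 9.11 to 11.7 CPM in JQ1 and 5.64 to 6.55 in IL-10, but was not called without replicate 2. A peak 152868 bases upstream of Cdyl had 2.65 to 4.06 CPM in JQ1 and 1.28 to 2.19 in IL-10, and lost its call without replicate 2 or 3.

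**Figure D4:**
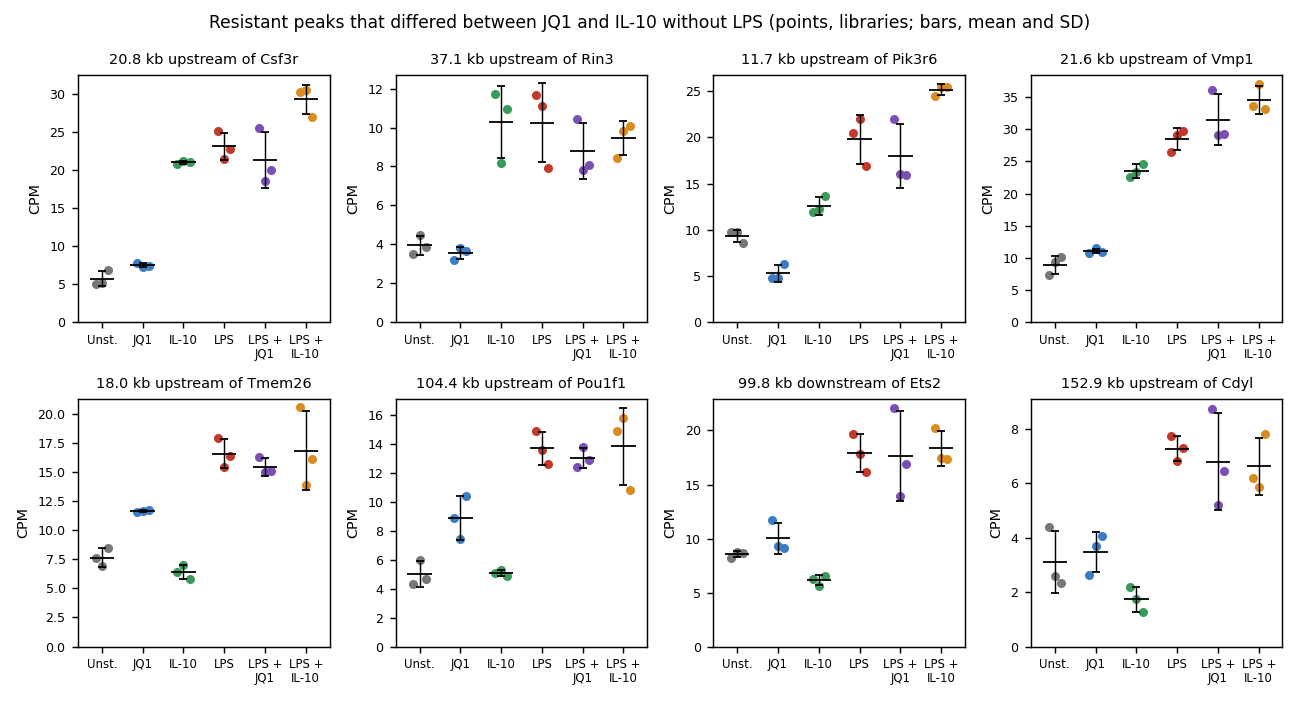
CPM per library (points) with mean and SD (bars, n = 3) in all 6 conditions at the 4 resistant peaks with the smallest adjusted p among those lower in JQ1 than in IL-10 (top) and among those higher (bottom). In the top row IL-10 alone lies above JQ1 alone and at Csf3r it comes to 21.0 CPM beside 23.1 CPM in LPS, while in the bottom row JQ1 alone lies above IL-10 alone.

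Each treatment was also set against Unstimulated cells, which shared libraries with the rule. In JQ1 120 resistant peaks were called higher and 3 lower, beside 4.34% higher and 3.39% lower of all distal peaks and 4.78% and 5.02% of the other opened peaks. In IL-10 149 were higher and 1 lower, beside 4.33% and 3.85% of all distal peaks and 8.62% and 4.88% of the other opened peaks. These counts depended on the scaling, since total-count scaling gave 34 higher and 13 lower in JQ1, beside 0.901% and 14.6% of all distal peaks, and 75 and 4 in IL-10, beside 1.32% and 9.13%. Total-count scaling also moved the median of all distal peaks from -0.12 to -0.40 on the log2 scale in JQ1 and from -0.08 to -0.29 in IL-10, while that of the resistant peaks went from 0.39 to 0.11 and from 0.35 to 0.16. Since the rule chose peaks by a low Unstimulated level relative to LPS, nothing is read from these counts and medians. Without replicate 2 the counts were 36 and 51. In the rule's own contrasts all 439 peaks were called higher in LPS than in Unstimulated, beside 11.1% of all distal peaks. By edgeR 0 were called in LPS + JQ1 against LPS, beside 1.74% higher and 3.55% lower of all distal peaks, and 0 in LPS + IL-10 against LPS, beside 4.54% and 4.65%. At an unadjusted p under 0.05 there were 14 and 18, and DESeq2 also called 0 in each. The rule fixed these counts and nothing is read from them.

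Genes of inflammatory function were counted by the resistant peaks within 25 kb of a start site. The 10 lists were chosen with earlier results of these data known, and 42 of 439 resistant peaks fell near a gene on one of them. The share of opened or of all distal peaks near the lists together is not given here, so nothing is read from this count. Signal attenuators, which limit inflammatory signalling, had 13 resistant peaks among 65 opened peaks, near 8 of 18 genes: Socs3, Dusp2, Zc3h12a, Zc3h12c, Tnfrsf1b, Pde4b, Il10 and Cd274. Chemokines had 9 of 36 (25.0%), near Ccl3, Ccl4, Ccl5, Ccl9 and Ccl17. Of these, 4 were near Ccl5 and 4 others near both Ccl3 and Ccl4. Near Cxcl9, Cxcl10 and Cxcl11 there were 0, and these genes shared the same 5 peaks lowered by both. NF-kappaB subunits and inhibitors had 7 of 56 (12.5%), near Rel, Nfkbia and Tnfaip3. Nfkbia alone had 5 of the 7, while 0 of 19 opened peaks near Nfkb1 were resistant. The shares of these 2 lists thus came from a few loci. All LPS-opened peaks had 9.76% resistant.

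Interferon-stimulated genes had the lowest share of the 10 lists. All 25 of these genes had an LPS-opened peak within 25 kb, and 3 of the 143 opened peaks (2.10%) were resistant while 86 were lowered by both. The 3 were near Ifit1, Mx1 and Gbp5. The Gbp5 peak, in an intron of this guanylate-binding protein gene, had 10.7, 14.4 and 11.0 CPM in LPS, 10.1 to 14.5 in LPS + JQ1 and 10.2 to 12.7 in LPS + IL-10. Near Rsad2, which encodes the antiviral enzyme viperin, 0 of 14 opened peaks were resistant and 12 were lowered by both.

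Inflammatory cytokines had 2 resistant peaks among 50 opened peaks (4.00%), near Il27 and Il1a, and 23 lowered by both. None of the 4 opened peaks near Il6 was resistant, and all 4 were lowered by both. The 2 opened peaks near Tnf and the 2 near Il12b were in neither class. Pattern recognition and surface receptors had 3 of 47 (6.38%), near Icam1, Fpr1 and Fpr2, and inflammatory enzymes had 2 of 19, near Irg1, the itaconate synthase gene, and Nampt. The bZIP factors, the IRF and STAT factors and the oxidative stress response had 1 resistant peak each, near Atf3, Stat5a (also within reach of Stat5b) and Prdx1. Of the 42 peaks near listed genes, JQ1 and IL-10 alone differed at 3, all lower in JQ1, nearest to Socs3, Nfkbia (5631 bases) and Ccl5 (10042 bases). In this comparison 1.51% of all distal peaks, 5.49% of the other opened peaks and 27 of all 439 resistant peaks were called lower. Nothing particular to the listed genes is read from the 3.

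Around Ccl5, the gene of the chemokine RANTES, resistant peaks and peaks lowered by both stood side by side. There were 10 LPS-opened distal peaks within 25 kb of its start site, of which 4 were resistant and 2 were lowered by both. The resistant peak 10042 bases upstream had 17.9 to 19.0 CPM in LPS, 16.0 to 22.3 in LPS + JQ1 and 16.9 to 20.6 in LPS + IL-10. The one 13528 bases upstream had 20.3 to 21.7 CPM in LPS, 17.1 to 21.1 in LPS + JQ1 and 22.3 to 26.1 in LPS + IL-10. The promoter peak of Ccl5 had 1.54 CPM in Unstimulated, 37.8 in LPS, 22.0 in LPS + JQ1 and 16.4 in LPS + IL-10, a log2 change against LPS of -0.78 and -1.26 (edgeR adjusted p = 3.62e-05 and 3.2e-11). This promoter was looked up after its values were seen.

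Promoters of the nearest genes were taken as another readout in the same libraries. Of 322 protein-coding genes nearest to a resistant peak within 100 kb, 295 had a tested promoter peak. In LPS against Unstimulated 124 of these were called higher (42.0%) and 1 lower, beside 14.3% and 6.71% of all promoter peaks, and for the other opened peaks' genes 41.0% were higher. In LPS + JQ1 against LPS 2 were called higher and 10 lower (3.39%), beside 1.72% and 3.22% of all promoter peaks. For the other opened peaks' genes 6.54% were lower, and for genes nearest to peaks lowered by both 11.2%. In LPS + IL-10 against LPS 6 were called higher and 21 lower (7.12%), beside 3.04% and 3.94% of all promoter peaks. For the other opened peaks' genes 11.1% were lower, and for genes nearest to peaks lowered by both 18.8%. In JQ1 against IL-10 without LPS 5 were higher and 5 lower (1.69% each), beside 1.37% and 1.31% of all promoter peaks. The gene sets overlap and share the rule's libraries, so the shares are descriptions.

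The rule used no sequence. An AP-1 element (TGANTCA, its own reverse complement) was found in the central 500 bases of 151 resistant peaks (34.4%), against 26.2% of LPS-opened peaks, 22.5% of those lowered by both and 19.3% of all distal peaks. The IRF response element (GAAANNGAA, either strand) was found in 19.4% of resistant peaks, 25.1% of opened peaks, 28.0% of those lowered by both, 20.1% of those lowered by JQ1 only and 16.8% of all distal peaks. Over whole peaks the IRF shares were 49.7% of resistant peaks, 51.7% of opened peaks and 51.7% of those lowered by both, so the difference in the central window was not seen there. The AP-1 shares over whole peaks were 62.0%, 51.8% and 43.6%. In the central 500 bases the kappaB motif was found in 12.3% of resistant peaks and 11.4% of opened peaks. The kappaB share was 10.7% in those lowered by both and 5.35% in all distal peaks. In the same window the C/EBP motif (TTGCNNAA) was in 27.8% of resistant peaks and 23.8% of opened peaks. The C/EBP motif was in 21.7% of those lowered by both and 20.5% of all distal peaks. It was in 28.3% of those lowered by JQ1 only, so its share was not particular to resistant peaks. No test was made of these shares, and a match is not a bound site.

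Repeated IRF elements were rare in the central 500 bases of resistant peaks. At least 2 matches were found there in 5 resistant peaks (1.14%), in 8.56% of peaks lowered by both and in 2.23% of all distal peaks. The mean number of matches per peak was 0.207, 0.813 and 0.209 in these sets, and 0.246 in peaks lowered by JQ1 only. Over whole peaks the means were 0.754 in resistant peaks, 1.47 in those lowered by both and 0.496 in all distal peaks, so resistant peaks stood above all distal peaks there. In the central 500 bases at least 2 AP-1 elements were found in 8.20% of resistant peaks, 3.07% of peaks lowered by both and 2.50% of all distal peaks. An AP-1 element with no IRF element was found in 28.0% of resistant peaks and 17.0% of those lowered by both. None of the AP-1, kappaB and IRF motifs was found in 204 resistant peaks (46.5%).

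The shares were also taken in steps over all 4500 opened peaks ordered by the smaller of their 2 ratios to LPS. The share with an AP-1 element was 18.3% where that ratio was under 0.4, then 26.4%, 26.9% and 29.5% in the steps from 0.4 to 0.55, 0.55 to 0.7 and 0.7 to 0.85, and 34.2% at 0.85 and above. The share with any IRF element was 25.8%, 25.5%, 27.5% and 25.1% in the first 4 steps and 18.4% in the last. The share with at least 2 IRF elements was 8.66% in the first step, 6.00% to 6.47% in the middle steps and 1.29% in the last. The median Unstimulated level went up along the same steps from 1.51 to 4.16 CPM, and its part in the shares was not tested.

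Levels were also set out by motif within the resistant peaks. Peaks with a kappaB motif (54) had a median of 13.6 CPM in LPS, and those without it (385) had 10.9 CPM. Their Unstimulated medians were 5.30 and 4.51 CPM, and their median LPS to Unstimulated ratios were 2.43 and 2.35. For the AP-1, IRF, C/EBP, STAT and PU.1/ETS motifs the LPS median was lower with the motif than without it, as in AP-1 (10.7 against 11.7 CPM). The rule used the LPS and Unstimulated levels, and no test was made.

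**Figure D5:**
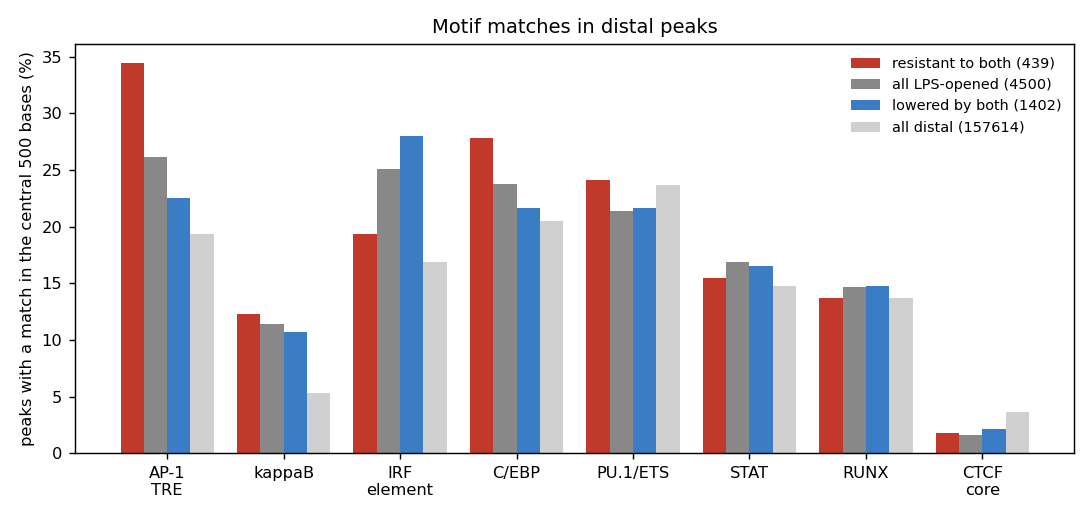
Share of peaks (y axis, %) with at least 1 motif match in their central 500 bases for the 439 resistant peaks, all 4500 LPS-opened peaks, the 1402 lowered by both and all 157614 distal peaks. The AP-1 bars fall from 34.4% to 19.3% across the sets in that order, and the IRF element is highest, at 28.0%, in the peaks lowered by both.

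By the gene annotation 214 (48.7%) were in introns, 212 (48.3%) were intergenic, 9 overlapped UTRs and 4 coding or other exons. Of all distal peaks 55.7% were in introns and 38.8% intergenic. The median distance to the nearest start site of any gene was 12842 bases for resistant peaks, 14081 for opened peaks and 12424 for all distal peaks. Chromosomes 2 and 11 held 57 resistant peaks each, 11.0% and 14.4% of the opened peaks there, and chromosome 3 held 10, which was 3.69%.

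Resistant peaks were more often near each other than near peaks lowered by both. A peak lowered by both lay within 10 kb of 12 resistant peaks (2.73%), of 22.7% of all LPS-opened peaks and of 2.46% of all distal peaks. Another resistant peak lay within 10 kb of 73 resistant peaks (16.6%), against 5.18% of all LPS-opened peaks and 1.10% of all distal peaks. Both classes were chosen from the same libraries, and no test was made of these shares.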

How the data were processed

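ATAC-seq libraries of 18 samples were grouped by their labels. The authors aligned read pairs to mm9 with bowtie2 in PEPATAC v0.9.0, called peaks per library with MACS2 and merged them. The deposited values are raw counts per peak and library, not normalized, and the counting tool is not given in the sources used here. The authors classed peaks within 1000 bases before to 100 after a start site as promoter and the others as distal. A further 6 columns matched no sample and were not used. Depth was 12020526 to 25908198 counts per library, and at the lowest depth 3 counts are 0.25 CPM. Counting error only is covered by that floor.

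The members, gene lists and motifs were chosen with earlier results of these data known. Named peaks were the 6 with the largest LPS to Unstimulated ratio, the 6 with the highest LPS level, the 4 with the smallest adjusted p in each direction in JQ1 against IL-10, those nearest each threshold, the 2 highest per gene list and the 3 densest windows of 100 kb. Of these, values are given for the peaks that illustrate each result. The peaks nearest 2 of the thresholds are not reported here.

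Counts of all peaks were fitted in one edgeR 4.0.16 quasi-likelihood model of the 6 groups (R 4.3.3, filterByExpr, TMM), with Benjamini-Hochberg adjustment over all tested peaks. The study used DESeq2, and DESeq2 1.42.0 was an alternative, as were other scalings, filters, a lane term, a replicate block and leaving out replicates. The description of the series calls samples of different conditions matched, but no label ties a replicate number to an animal. As a check, deviations from group means correlated at 0.0057 on average between libraries of 1 number and at -0.0029 between the others. The numbers therefore did not show a pairing, and the block was an alternative only. The scripts were tested on simulated data. Motifs were searched in mm9 (NCBIM37), and genes are those of GENCODE vM1, with 229 of 229 listed genes matched, 1 through an older symbol.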

Additional observations from a re-analysis of the deposited data

How the results depend on the processing

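The number of resistant peaks depended on the scale of the ratios. It was 770 with TMM-scaled CPM (362 of the 439 shared) and 814 with DESeq2 size factors (368 shared), 64 with an LPS to Unstimulated ratio of 3 or more, and 23 where the rule had to hold in each same-numbered set. Leaving out a replicate gave 357 to 502. The peaks called in JQ1 against IL-10 without LPS numbered 12 to 36 when a replicate was left out (12 without replicate 2, 27 without replicate 3) and 43 without LPS + JQ1 replicate 1. Those called in JQ1 against Unstimulated numbered 47 with total-count scaling and 36 to 144 with a replicate left out, and in IL-10 against Unstimulated 79 and 51 to 145. In LPS + JQ1 against LPS 0 to 1 were called with a replicate left out, and 2 without LPS + JQ1 replicate 1 alone, an alternative chosen after seeing the data. In LPS + IL-10 against LPS 0 to 1 were called. With the replicate block 42, 121 and 150 peaks were called in JQ1 against IL-10, JQ1 against Unstimulated and IL-10 against Unstimulated, and the block moved no count by over 1.5 times. The remaining settings, DESeq2 included, left each count within 1.5 times. The cause of these shifts was not tested. Protein-coding start sites alone gave a median distance of 17767 bases. With 3 libraries per group, p-values rest on the spread between these libraries.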
